A study of Rattus norvegicus with 18 samples.

Results

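The organic anion and cation transporter genes are the carriers and pumps that move drugs, metabolites, conjugates, lipids, prostaglandins and hormones across cell membranes. They were taken here as the features whose single gene symbol in the platform's annotation begins with Slc22a, Slco or Slc47a, or with Abcb, Abcc or Abcg, with Abcg1 left out. Of 28328 features, 59 met this rule and stood for 56 genes, and a gene with several features was represented by the one with the highest mean over all arrays (Abcc4 has 3 features and Abcc9 has 2). A further 4 features carried several symbols, among them Slc22a4, Slc22a5, Slc22a17, Slco1a1 and Slco1a5, and were not named.

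RNA came from inner medullary collecting duct cells of the rat in primary culture and was hybridised to 18 whole-transcript arrays, in 6 groups of 3. Cells were grown at 300 mosmol/kg (300 culture) or at 600 mosmol/kg (600 culture). For the challenges, osmolality was raised for 24 h, from 300 to 600 mosmol/kg (600 challenge) or from 600 to 900 mosmol/kg (900 challenge), each also with 5 µM cyclosporin A. All groups share the primary culture. The rats' strain and age, any vehicle for the drug and any change of medium in the unchallenged cultures are not given in the sources used here. Separate cultures or animals behind the 3 arrays per group are not stated in the labels, so the p-values measure only the spread between these samples, which may be technical.

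Expression is given in log units, as deposited. The sources used here do not give the base of the logarithm, so 1 unit is a 2-fold difference if the base is 2 and a 2.72-fold difference if the log is natural. Array medians lay between 3.564 and 3.649, the median SD within a group was 0.108 to 0.123, and arrays of a group correlated at 0.9834 to 0.9867. Array 1 of the 900 challenge with cyclosporin A had the lowest median and lower quartile of all arrays (3.564 and 2.476). Array 2 of that group had 3.628 and 2.662. A lower quartile of the feature means, 2.600, is used below as a mark of dim features, since the sources used here give no signal over background. Levels of different genes come from different probes and are not compared.

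The label of collecting duct cells was checked against 12 principal cell markers. Their mean level per array was 3.15 to 3.27 in the 300 culture, where 6 of the 12 lay under the lower quartile, Aqp2 among them at 1.61. It was 3.40 to 3.42 in the 600 challenge, 3.15 to 3.23 with cyclosporin A, 5.09 to 5.38 in the 600 culture, 5.63 to 5.64 in the 900 challenge and 5.43 to 5.53 with the drug. The list did not go one way: in the 300 culture, the 600 challenge and that challenge with the drug, Aqp2 had means of 1.61, 2.28 and 1.86, while Cdh16, a kidney cadherin, had 6.77, 7.70 and 7.55 and the transcription factor gene Gata3 6.26, 6.04 and 5.58. The defining water channel of the labelled cell type was thus low in these groups, while Cdh16 and Gata3 were well above the lower quartile. Under it lay 6 of the 12 markers in the 300 culture, 5 in the 600 challenge and 6 with the drug. No marker was at 0 in any group, but only 16 of 28328 features had a value at 0, so this says little about the cell type.

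Slc22 and Slco proteins are uptake carriers: the Slc22 family exchanges or co-transports organic anions, cations and carnitine, and the Slco family, the organic anion transporting polypeptides, takes up bile acids, steroid conjugates, thyroid hormones and prostaglandins. The Slc47a proteins exchange organic cations for protons, and the Abcb, Abcc and Abcg proteins use ATP to push drugs, conjugates, cyclic nucleotides and lipids out of the cell or across membranes of organelles. In the kidney this machinery is known best from the proximal tubule, where uptake at the blood side and efflux into the urine together secrete drugs and waste; the collecting duct is better known for local handling of prostaglandins, which act on salt and water transport. Cyclosporin A inhibits the phosphatase calcineurin, and it is also a substrate and inhibitor of P-glycoprotein and an inhibitor of several Slco carriers.

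Of the 56 genes, 17 passed the test in at least 1 of 8 pairwise comparisons and 39 in none (limma on all 28328 features, Benjamini-Hochberg adjusted p under 0.05). That is 30.4%, against 37.2% of all features. A mean under the lower quartile was found for 25 of the 56, of which 0 were called, against 12.4% of such features. Of the 31 genes at or above it 17 were called, against 45.4% of such features. Among these 17, Slco2b1 stood just above the lower quartile through its level in the 300 culture, with 4 of its 6 group means below it. After the move from 300 to 600 mosmol/kg, 8 genes rose and 3 fell, against 6.36% and 8.07% of all features. With cyclosporin A present the same move gave 7 higher and 5 lower, against 6.21% and 7.85%. After the move from 600 to 900 mosmol/kg, 4 rose and 6 fell, against 6.43% and 11.0%, and with the drug 4 rose and 4 fell, against 7.27% and 10.5%. When arrays were also centred on their medians, the share of higher calls over all features in that last comparison went from 40.9% to 53.5%.

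Between the unchallenged cultures, 5 genes were higher and 6 lower at 600 mosmol/kg, against 8.33% and 8.84% of all features. The 600 challenge against the 600 culture, which compares 24 h with longer culture at 600 mosmol/kg, gave 6 higher and 4 lower, against 7.69% and 8.74%. The median over the 56 genes was between -0.04 and 0.05 log units in the 8 comparisons, and over all features it was between -0.02 and 0.03. In these 6 osmotic comparisons the share of transporter genes called in a direction ran from 5.4% to 14.3%. The highest, the 8 risers of the 300 to 600 move, came down to 4 without array 1 or without array 3 of the 300 culture, and with only those groups fitted; these settings also called fewer of all features, 2902 to 3224 against 4087. The comparisons with the 300 culture share its 3 arrays, and those with the 600 culture share that group's arrays. In such bulk cultures, fewer cells of a type and less RNA per cell cannot be told apart.

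**Figure D1:**
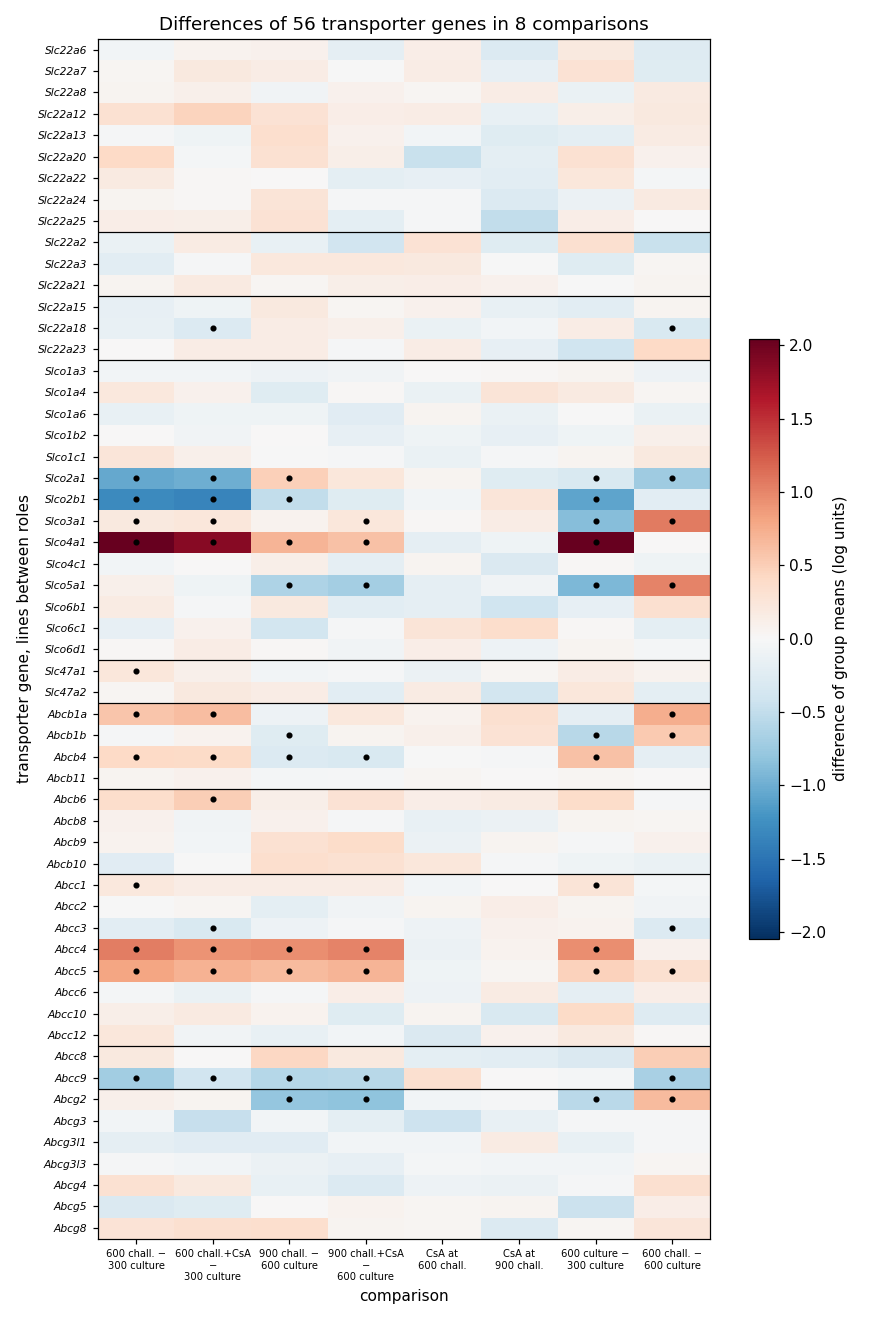
Differences of group means in log units (colour) for the 56 transporter genes (rows, with lines between roles) in the 8 pairwise comparisons (columns; CsA is cyclosporin A). A dot marks an adjusted p under 0.05 in limma. The dots sit in 17 rows, the strongest colours belong to Slco4a1 (2.04) and Slco2b1 (-1.35), and the 2 columns of the drug effect hold no dot.

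The 9 Slc22 organic anion transporters include carriers of the uptake step of renal drug secretion. None of the 9 was called in any comparison, against 37.2% of all features. Of the 9, 7 had a mean under the lower quartile, where 12.4% of features were called. Slc22a6 and Slc22a8, the main basolateral carriers of the proximal tubule, had group means from 1.58 to 1.94 and from 1.48 to 1.79, below that mark in all 6 groups. The urate exchanger Slc22a12 lay between 1.36 and 1.81. Differences over the 9 genes ran from -0.51 to 0.45 log units. Of 12 proximal tubule markers 11 were measured, and their mean level per array stayed between 2.17 and 2.50, with 8 to 10 of the 11 under the lower quartile. Of the 11, 1 rose in the 900 challenge, against 6.43% of all features. This was Ggt1, with means of 2.80 in the 600 culture and 3.87 in the 900 challenge. In the 600 challenge 1 marker was higher than in the 600 culture, against 7.69% of all features.

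Among the Slc22 cation and carnitine carriers 0 of 3 were called, against 37.2% of all features. Slc22a2, the renal organic cation carrier, lay at 2.21 to 2.67 and Slc22a3 at 1.89 to 2.15. Slc22a21, a carnitine carrier, lay at 3.60 to 3.79. Of the 3 other Slc22 genes only Slc22a18, which sits in an imprinted gene cluster, was called. It was lower in the 600 challenge with cyclosporin A than in the 300 culture (-0.28, SE 0.08, adjusted p = 0.0325) and lower in the 600 challenge than in the 600 culture (-0.31, adjusted p = 0.0166). The first call was lost when any array of the 300 culture or array 2 or 3 of the drug group was left out (adjusted p 0.0596 to 0.117). The second was lost without array 3 of the 600 culture or array 1 or 2 of the 600 challenge (0.0564 to 0.0826).

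Of the 2 Slc47a extruders, which pass organic cations into the urine in exchange for protons, Slc47a1 was higher in the 600 challenge than in the 300 culture by 0.23 (SE 0.07, adjusted p = 0.0447). Its group means ran only from 4.59 to 4.82, and without any one array of the 300 culture or array 1 of the 600 challenge the difference was 0.14 to 0.24 and no longer passed (adjusted p 0.0777 to 0.19). Slc47a2 lay at 2.38 to 2.77 and was called in no comparison.

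The Slco family held the largest differences. Of its 14 members 5 were called, against 37.2% of all features: Slco4a1, Slco3a1, Slco5a1, Slco2a1 and Slco2b1. The other 9, among them Slco1a4, Slco1b2 and Slco4c1, differed by -0.41 to 0.35 in the 8 comparisons and were called in none.

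Slco4a1, a carrier of thyroid hormones and other anions, was the gene with the largest difference. In the 300 culture its levels were 5.318, 4.973 and 4.971, in the 600 challenge 7.184, 7.132 and 7.078, and with cyclosporin A 6.963, 6.867 and 7.004. In the 600 culture they were 7.142, 7.096 and 7.128, in the 900 challenge 7.832, 7.794 and 7.803, and with the drug 7.711, 7.697 and 7.767. Every array at 600 mosmol/kg lay above every array at 300, and every array at 900 above every array at 600. Slco4a1 rose by 2.04 (SE 0.08, adjusted p = 7.26e-10) in the 600 challenge, that is 4.12-fold in base 2 and 7.72-fold with a natural log. The 600 culture stood above the 300 culture by 2.03 (adjusted p = 1.05e-10), and the 600 challenge differed from the 600 culture by only 0.01 (95% interval -0.16 to 0.17). The further move to 900 added 0.69 (SE 0.08, adjusted p = 1.67e-05), or 0.60 with the drug.

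Slco3a1, a carrier of prostaglandins and thyroid hormone, parted acute from long-term hypertonicity. Its levels were 6.605, 6.638 and 6.570 in the 300 culture, against 6.787, 6.849 and 6.782 in the 600 challenge and 6.848, 6.857 and 6.799 with the drug. Those in the 600 culture were 5.654, 5.846 and 5.713, in the 900 challenge 5.727, 5.879 and 5.844 and with the drug 5.951, 5.954 and 5.991. All arrays that started from the 300 culture lay above all that started from the 600 culture, whatever the final osmolality. The 600 culture was below the 300 culture by 0.87 (difference -0.87, SE 0.06, adjusted p = 2.88e-08), and the 600 challenge was above the 600 culture by 1.07 (adjusted p = 3.88e-09). The small rise in the 600 challenge over the 300 culture (0.20, adjusted p = 0.0231) was lost without array 1 or 3 of the 300 culture or array 2 of the challenge (adjusted p 0.0635 to 0.0888). The rises with the drug, 0.23 over the 300 culture and 0.23 over the 600 culture, passed at adjusted p = 0.0108 and 0.00924, and both were lost when only the groups compared were fitted (0.0555 and 0.104).

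Slco5a1, a member with poorly defined substrates, showed the same split and fell again at 900. Levels in the 300 culture were 4.549, 4.595 and 4.441, in the 600 challenge 4.609, 4.602 and 4.668 and with the drug 4.496, 4.508 and 4.310. In the 600 culture they were 3.497, 3.715 and 3.626, in the 900 challenge 2.988, 2.933 and 3.022 and with the drug 2.790, 2.913 and 3.029. The 3 groups did not overlap in the order 300 culture, 600 culture, 900 challenge, while the 600 challenge stayed at the level of the 300 culture, its lowest array just above that group's highest. Slco5a1 was lower by 0.92 in the 600 culture (difference -0.92, SE 0.08, adjusted p = 4.78e-07), fell by a further 0.63 in the 900 challenge (-0.63, adjusted p = 3.3e-05), and differed by 0.10 in the 600 challenge (95% interval -0.06 to 0.26, adjusted p = 0.469).

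Slco2a1 is the prostaglandin transporter, which takes prostaglandins up and so ends their action outside the cell. Its levels were 3.415, 3.601 and 3.685 in the 300 culture, and they were 2.547, 2.660 and 2.356 in the 600 challenge and 2.530, 2.558 and 2.641 with the drug. In the 600 culture they were 3.197, 3.142 and 3.418, in the 900 challenge 3.640, 3.853 and 3.714 and with the drug 3.411, 3.482 and 3.569. The 6 arrays of the 600 challenge groups were the lowest of all 18, near the lower quartile, and the 3 of the 900 challenge lay above those of the 600 culture. Slco2a1 fell by 1.05 in the 600 challenge (-1.05, SE 0.10, adjusted p = 3.23e-06) and by 0.99 with the drug (-0.99), but rose by 0.48 in the 900 challenge (SE 0.10, adjusted p = 0.00243). With cyclosporin A the difference at 900 was 0.24 and it did not pass (adjusted p = 0.12). The difference between the cultures (-0.31, adjusted p = 0.0356) was lost without array 2 or 3 of the 300 culture or array 1 or 2 of the 600 culture (0.104 to 0.146).

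Slco2b1, a carrier of steroid sulfates and many drugs, was highest in the 300 culture, at 3.854, 3.542 and 3.816. Levels were 2.499, 2.246 and 2.577 in the 600 challenge and 2.286, 2.399 and 2.467 with the drug. They were 2.906, 2.444 and 2.605 in the 600 culture, against 2.101, 2.300 and 2.057 in the 900 challenge and 2.413, 2.598 and 2.209 with the drug. No array of another group reached the 300 culture and most lay under the lower quartile. The fall was 1.30 in the 600 challenge (-1.30, SE 0.13, adjusted p = 9.93e-06), 1.35 with the drug (-1.35) and 1.09 in the 600 culture (-1.09, adjusted p = 3.07e-05). The difference at 900 (-0.50, adjusted p = 0.0174) was lost without array 1 of the 600 culture or array 1 or 3 of the 900 challenge (0.0589 to 0.0841), and with the drug it was -0.24 (adjusted p = 0.269).

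**Figure D2:**
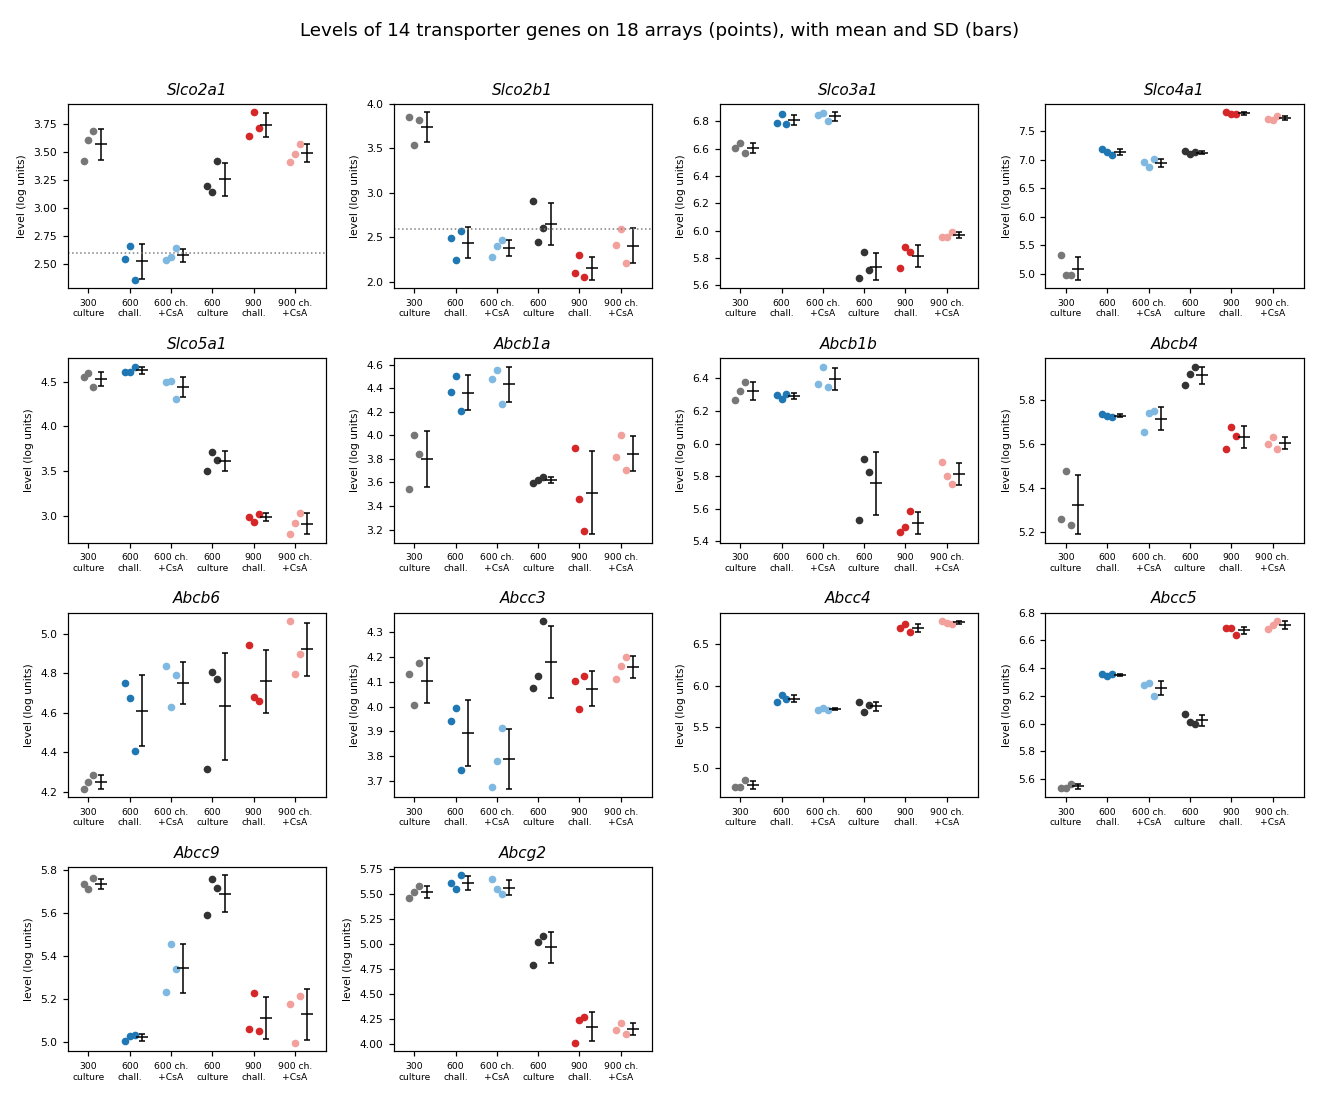
Levels of 14 transporter genes (log units; the axes differ between panels) on each of the 3 arrays per group (points), with the group mean and SD beside them (bars). Colours mark the groups; the dotted line in the Slco2a1 and Slco2b1 panels is the lower quartile of all feature means, 2.600. Slco4a1, Abcc4 and Abcc5 step upward from 300 to 900 mosmol/kg, and Slco3a1, Slco5a1, Abcg2 and Abcb1b part the groups grown at 300 from those grown at 600.

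Of the 4 Abcb full transporters, 3 were called, against 37.2% of all features, a count too small to read as a result about this family. Abcb1a and Abcb1b both encode P-glycoprotein, the drug efflux pump, in rodents, and they are close copies whose probes may share signal. Abcb1a levels were 3.546, 4.007 and 3.845 in the 300 culture, against 4.369, 4.506 and 4.211 in the 600 challenge and 4.481, 4.556 and 4.266 with the drug. They were 3.595, 3.620 and 3.649 in the 600 culture, against 3.892, 3.457 and 3.191 in the 900 challenge and 3.820, 4.004 and 3.710 with the drug. The 6 arrays of the 600 challenge groups were the highest. Abcb1a rose by 0.56 in the 600 challenge (SE 0.16, adjusted p = 0.0259) and by 0.64 with the drug (adjusted p = 0.0132), and the 600 challenge stood above the 600 culture by 0.74 (adjusted p = 0.00385). The first call was lost without array 1 or 3 of the 300 culture or array 1 or 2 of the 600 challenge (adjusted p 0.0553 to 0.122), and the second without array 1 of the 300 culture or array 2 of the drug group (0.0543 and 0.0699).

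Abcb1b levels were 6.266, 6.321 and 6.375 in the 300 culture, against 6.298, 6.273 and 6.304 in the 600 challenge and 6.367, 6.473 and 6.348 with the drug. In the groups grown at 600 they were 5.533, 5.905 and 5.827 without a challenge, 5.459, 5.485 and 5.587 in the 900 challenge and 5.884, 5.801 and 5.754 with the drug. The groups grown at 300 lay above all those grown at 600, with no overlap. The 600 culture was lower by 0.57 than the 300 culture (-0.57, SE 0.08, adjusted p = 0.000112), and the acute move gave -0.03 (95% interval -0.20 to 0.14). The 600 challenge stood above the 600 culture by 0.54 (adjusted p = 0.000211). A further -0.24 at 900 was at the edge of the threshold (adjusted p = 0.0487) and was lost under 5 of the leave-one-out fits, without array 2 or 3 of the 600 culture or any array of the 900 challenge (0.051 to 0.215).

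Abcb4, which moves phosphatidylcholine across the membrane, was called in 5 comparisons. Levels were 5.257, 5.477 and 5.232 in the 300 culture, against 5.738, 5.726 and 5.725 in the 600 challenge and 5.655, 5.741 and 5.749 with the drug. They were 5.870, 5.919 and 5.951 in the 600 culture, against 5.577, 5.679 and 5.638 in the 900 challenge and 5.601, 5.634 and 5.577 with the drug. The 600 culture was highest and the 300 culture lowest, with no overlap between either and any other group. Abcb4 rose by 0.41 in the 600 challenge (SE 0.06, adjusted p = 0.000267), stood 0.59 higher in the 600 culture (adjusted p = 4.21e-06), and fell by 0.28 in the 900 challenge (-0.28, adjusted p = 0.004). The bile salt pump Abcb11 did not pass in any comparison.

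Of the 4 smaller Abcb transporters, which pair up and work in mitochondria and other organelles, Abcb6, a porphyrin transporter, was called once. Its levels were 4.216, 4.250 and 4.286 in the 300 culture, against 4.749, 4.674 and 4.408 in the 600 challenge and 4.835, 4.632 and 4.792 with the drug. They were 4.318, 4.806 and 4.774 in the 600 culture, against 4.943, 4.678 and 4.658 in the 900 challenge and 5.066, 4.798 and 4.900 with the drug. All 15 arrays above 300 mosmol/kg lay above the 300 culture. Only the 600 challenge with cyclosporin A passed (0.50, SE 0.13, adjusted p = 0.0166), and this was lost without array 1 of the 300 culture or array 1 or 3 of the drug group (0.0537 to 0.0657); the 600 challenge gave 0.36 (adjusted p = 0.0827) and the 600 culture 0.38 (adjusted p = 0.0574).

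Among the 8 Abcc pumps 4 were called, against 37.2% of all features. Abcc4 and Abcc5 rose at each step. Both export cyclic nucleotides, and Abcc4 also exports prostaglandins, the opposite direction to the uptake by Slco2a1. Abcc4 levels were 4.773, 4.772 and 4.858 in the 300 culture, against 5.802, 5.883 and 5.838 in the 600 challenge and 5.709, 5.734 and 5.703 with the drug. They were 5.796, 5.684 and 5.765 in the 600 culture, against 6.699, 6.744 and 6.651 in the 900 challenge and 6.782, 6.761 and 6.750 with the drug. The arrays fall into 3 bands by final osmolality with no overlap between bands. Abcc4 rose by 1.04 in the 600 challenge (SE 0.05, adjusted p = 3.24e-09) and by 0.95 in the 900 challenge (SE 0.05, adjusted p = 5.97e-09), and stood 0.95 higher in the 600 than in the 300 culture (adjusted p = 1.4e-09). Acute and long-term culture at 600 differed by 0.09 (95% interval -0.01 to 0.19, adjusted p = 0.221). The 2 other features of Abcc4 rose as well, by 1.37 and 1.17 in the 600 challenge and by 1.02 and 1.39 in the 900 challenge.

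Abcc5 levels were 5.537, 5.539 and 5.567 in the 300 culture, against 6.355, 6.344 and 6.360 in the 600 challenge and 6.282, 6.295 and 6.201 with the drug. They were 6.070, 6.010 and 5.995 in the 600 culture, against 6.688, 6.690 and 6.642 in the 900 challenge and 6.682, 6.712 and 6.741 with the drug. The 300, 600 and 900 mosmol/kg arrays again did not overlap, and here the 600 challenge lay above the 600 culture. Abcc5 rose by 0.81 in the 600 challenge (SE 0.04, adjusted p = 1.19e-08) and by 0.65 in the 900 challenge (SE 0.04, adjusted p = 8.4e-08). The 600 culture was 0.48 above the 300 culture (adjusted p = 8.21e-07), and the 600 challenge 0.33 above the 600 culture (adjusted p = 4.36e-05).

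Abcc3, a basolateral pump of conjugates and bile salts, moved little. Its levels were 4.133, 4.005 and 4.178 in the 300 culture, against 3.943, 3.996 and 3.744 in the 600 challenge and 3.674, 3.779 and 3.915 with the drug. They were 4.074, 4.124 and 4.346 in the 600 culture, against 4.105, 3.991 and 4.123 in the 900 challenge and 4.111, 4.164 and 4.201 with the drug. The 600 challenge groups held the lowest arrays, and only 1 of their 6 reached the range of the other groups. The 600 challenge with cyclosporin A was below the 300 culture (-0.32, SE 0.09, adjusted p = 0.0253), which was lost without array 1 or 3 of the 300 culture or array 1 or 2 of the drug group (0.0663 to 0.112). The 600 challenge was below the 600 culture (-0.29, adjusted p = 0.0362), which was lost without array 2 or 3 of the 600 culture or array 1 or 3 of the challenge (0.0526 to 0.167). Abcc1, a pump of glutathione conjugates, was 0.26 higher in the 600 than in the 300 culture (adjusted p = 0.0059). Its rise of 0.21 in the 600 challenge (adjusted p = 0.0236) was lost without any one array of the 300 culture or array 1 or 3 of the challenge (0.0525 to 0.078).

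Abcc9 and Abcc8 are the sulfonylurea receptors, regulatory subunits of ATP-sensitive potassium channels rather than pumps. Abcc9 levels were 5.735, 5.713 and 5.763 in the 300 culture, against 5.006, 5.030 and 5.034 in the 600 challenge and 5.234, 5.460 and 5.342 with the drug. They were 5.595, 5.762 and 5.717 in the 600 culture, against 5.064, 5.228 and 5.054 in the 900 challenge and 5.180, 4.997 and 5.215 with the drug. Both unchallenged cultures lay above all 12 challenged arrays. Abcc9 fell by 0.71 in the 600 challenge (-0.71, SE 0.07, adjusted p = 9.24e-06) and by 0.58 in the 900 challenge (-0.58, SE 0.07, adjusted p = 5.67e-05), and the cultures differed by -0.05 (95% interval -0.20 to 0.11, adjusted p = 0.78). Its second feature had the same calls, with -0.85 in the 600 challenge and -0.68 in the 900 challenge. Abcc8 was called in no comparison.

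Abcg2 is the breast cancer resistance protein, which exports urate, sulfate conjugates and drugs. It was the only one of 7 Abcg genes called, against 37.2% of all features. Its levels were 5.460, 5.521 and 5.579 in the 300 culture, against 5.611, 5.550 and 5.691 in the 600 challenge and 5.649, 5.553 and 5.503 with the drug. They were 4.794, 5.024 and 5.083 in the 600 culture, against 4.007, 4.238 and 4.271 in the 900 challenge and 4.141, 4.212 and 4.094 with the drug. The 9 arrays that started from the 300 culture were the highest, the 600 culture lay between and both 900 groups were lowest, with no overlap among these bands. Abcg2 was 0.55 lower in the 600 than in the 300 culture (-0.55, SE 0.08, adjusted p = 0.000211) and fell by 0.80 in the 900 challenge (-0.80, SE 0.08, adjusted p = 9.64e-06) and by 0.82 with the drug (-0.82). After 24 h at 600 mosmol/kg it differed from the 300 culture by 0.10 (95% interval -0.08 to 0.28, adjusted p = 0.529).

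**Figure D3:**
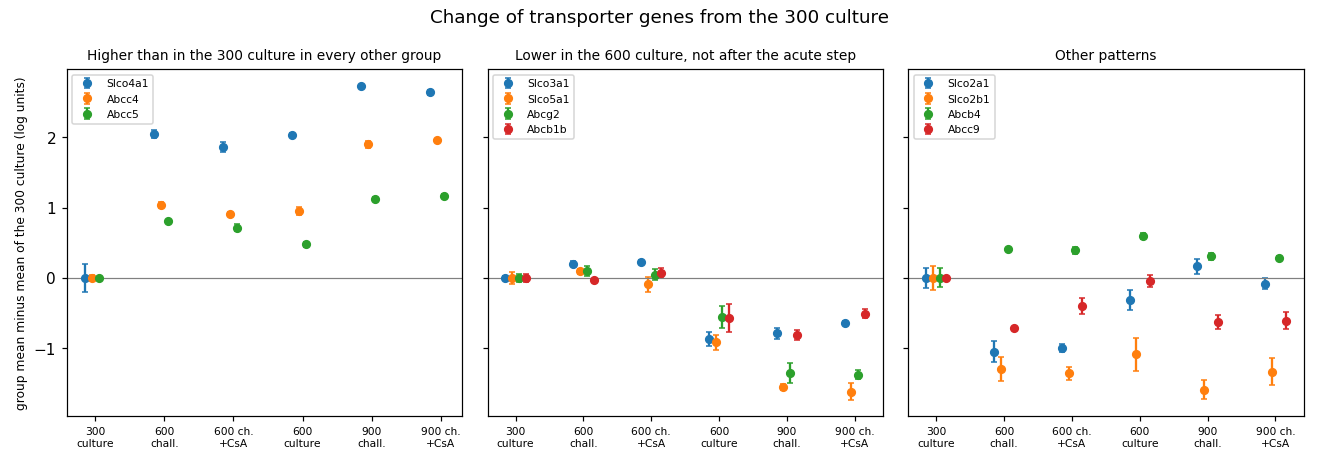
Group mean minus the mean of the 300 culture (log units, points) with the SD of the 3 arrays (bars) for transporter genes, in panels by pattern (CsA is cyclosporin A). Slco4a1, Abcc4 and Abcc5 are above 0 in every other group; Slco3a1, Slco5a1, Abcg2 and Abcb1b drop in the 600 culture but not in the 600 challenge; Slco2a1 is lowest in the 600 challenge groups, and Abcc9 is low in the challenged groups of both cultures.

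Promoter sequences from RefSeq (build GRCr8, 250 bases before to 50 bases after the gene's start) were matched to 48 of the 56 genes and to 13 of the 17 called. Those of Slco4a1 and Abcc4, which rose with osmolality, and of Abcg2, which fell, are shown as examples. Each holds the motif marked below, which the promoters of Slco3a1 and Slco2b1, genes also with large differences, do not. Capitals mark the core of the xenobiotic response element, GCGTG, or CACGC where it lies on the other strand:
Slco4a1, chr3:187936632-187936931, plus strand: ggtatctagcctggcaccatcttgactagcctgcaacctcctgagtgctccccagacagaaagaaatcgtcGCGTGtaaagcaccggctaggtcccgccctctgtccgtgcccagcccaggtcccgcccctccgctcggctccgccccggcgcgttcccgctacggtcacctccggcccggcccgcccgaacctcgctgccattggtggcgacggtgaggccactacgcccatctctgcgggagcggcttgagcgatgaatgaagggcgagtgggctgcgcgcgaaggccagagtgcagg
Abcc4, chr15:102181315-102181614, minus strand: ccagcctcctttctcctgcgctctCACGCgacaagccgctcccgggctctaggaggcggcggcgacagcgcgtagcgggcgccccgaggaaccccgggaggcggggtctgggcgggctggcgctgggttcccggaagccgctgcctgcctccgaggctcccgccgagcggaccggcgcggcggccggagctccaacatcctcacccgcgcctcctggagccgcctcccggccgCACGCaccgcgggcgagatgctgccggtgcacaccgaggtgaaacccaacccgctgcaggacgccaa
Abcg2, chr4:89075224-89075523, plus strand: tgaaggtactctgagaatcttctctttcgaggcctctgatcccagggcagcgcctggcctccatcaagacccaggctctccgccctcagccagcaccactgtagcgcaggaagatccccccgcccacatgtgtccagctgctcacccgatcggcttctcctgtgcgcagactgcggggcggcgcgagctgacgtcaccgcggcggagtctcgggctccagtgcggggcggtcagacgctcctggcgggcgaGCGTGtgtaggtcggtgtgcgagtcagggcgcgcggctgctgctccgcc
On both strands, GCGTG occurred in 19 of the 48 promoters, in 8 of the 13 of called genes, and in 31.1% of 27457 promoters of the same length in the table. The antioxidant response core TGACNNNGC occurred in 7 of 48, 0 of 13 and 12.2%, and the NFAT core TGGAAA in 10 of 48, 2 of 13 (Abcb1a and Abcb1b) and 22.4%. These motifs are short, and a match is a description of letters and not a bound site.

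Whether the moves from 300 to 600 and from 600 to 900 mosmol/kg had unequal effects was tested as a difference of differences, second step minus first. This gave 2 genes higher and 4 lower, against 3.52% and 4.06% of all features. Slco2a1 had the largest positive value, 1.53 (SE 0.14, adjusted p = 1.19e-05), as it fell at the first step and rose at the second. Slco2b1 followed with 0.80 (SE 0.19, adjusted p = 0.019), a call lost without array 1 of the 300 culture or array 2 of the 600 culture (0.0529 and 0.0524). Its means of 2.65 in the 600 culture and 2.15 in the 900 challenge lay near or under the lower quartile. This limits how large a second fall could be measured. Slco4a1 rose less at the second step (-1.36, SE 0.11, adjusted p = 6.11e-06). Abcg2 (-0.89, adjusted p = 0.000321), Slco5a1 (-0.73, adjusted p = 0.000698) and Abcb4 (-0.69, adjusted p = 0.000179) were lower at the second step relative to the first. For Abcc4 the steps differed by -0.09 (95% interval -0.23 to 0.05, adjusted p = 0.489). Of its 2 other features 1 passed (-0.35, adjusted p = 0.0289) and 1 went the other way without passing (0.22, adjusted p = 0.497). For Abcc5 the steps differed by -0.16 (adjusted p = 0.133).

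Cyclosporin A was compared with the same challenge without it. No transporter gene was called at 600 mosmol/kg, where 0.229% of all features were higher and 0.180% lower, and none at 900, where these shares were 0.357% and 0.148% (limma, adjusted p under 0.05). At an unadjusted p under 0.05 there were 6 genes at 600, of which 1 was higher, and 7 at 900, of which 3 were higher. No share of all features at this unadjusted threshold is given beside these counts, so they are not read as a drug effect. Abcc9 came nearest at 600: the levels above give 0.32 higher with the drug (95% interval 0.17 to 0.48, adjusted p = 0.0915), and it passed when limma's trended robust variance was used (0.0243). At 900, Abcb1b was 0.30 higher with the drug (95% interval 0.13 to 0.47, adjusted p = 0.135) and passed with the trended robust variance (0.0331), with all 3 drug arrays above the 3 without. The other P-glycoprotein gene, Abcb1a, differed by 0.07 at 600 (95% interval -0.26 to 0.41) and 0.33 at 900 (-0.01 to 0.67, adjusted p = 0.481).

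The largest differences with the drug belonged to genes with levels near the lower quartile, -0.45 for Slc22a20 at 600 and -0.51 for Slc22a25 at 900, which had the lowest adjusted p of the 56 genes there (0.12). For the genes that rose with osmolality the drug differences were small: -0.19 for Slco4a1 (95% interval -0.35 to -0.02), -0.13 for Abcc4 (-0.22 to -0.03) and -0.09 for Abcc5 (-0.18 to -0.00) at 600, each with an unadjusted p under 0.05 and an adjusted p between 0.395 and 0.55. At 900 they were -0.08, 0.07 and 0.04. The drug effect itself differed between the 2 challenges for 0 genes, against 0.0388% of features higher and 0.00706% lower. At an unadjusted p under 0.05 there were 9 genes, again with no share of all features to set beside them.

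Markers of other cell types moved between the same groups. Over all features, 6.36% rose and 8.07% fell in the 600 challenge. These shares were 8.33% and 8.84% in the 600 against the 300 culture and 6.43% and 11.0% in the 900 challenge. Of 8 leukocyte markers 7 fell in the 600 challenge, 7 in the 600 culture and 8 in the 900 challenge, and 0 rose. Their mean level per array was 5.62 to 5.70 in the 300 culture, 4.09 to 4.29 in the 600 challenge, 3.89 to 4.21 with the drug, 4.40 to 4.60 in the 600 culture, 3.05 to 3.07 in the 900 challenge and 3.07 to 3.13 with the drug. The group means of Slco2b1, like those of this list, were highest in the 300 culture and lowest in the 900 challenge. Of 9 fibroblast markers 6 fell in the 600 challenge and 7 in the 900 challenge, with mean levels of 5.54 to 5.62 in the 300 culture, 4.84 to 4.90 in the 600 challenge, 5.01 to 5.08 with the drug, 5.22 to 5.26 in the 600 culture, 4.64 to 4.71 in the 900 challenge and 4.68 to 4.78 with the drug. Abcc9 was lower in the challenged groups, and this list was lower after each challenge than in the culture it started from. In the 600 against the 300 culture 5 of the 9 fibroblast markers fell and 0 rose, while Abcc9 differed by -0.05 and was not called.

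Of 8 endothelial markers 6 fell and 1 rose in the 600 challenge, and 5 rose and 1 fell in the 600 culture. Their mean level was 5.14 to 5.18 in the 300 culture, 4.79 to 4.88 in the 600 challenge, 4.67 to 4.72 with the drug, 5.52 to 5.62 in the 600 culture, 5.36 to 5.44 in the 900 challenge and 5.40 to 5.41 with the drug. Slco2a1 was likewise lowest in the 600 challenge groups, but unlike this list it was not lower in the 900 challenge than in the 600 culture. No marker of these lists was at 0 in any group, which holds for nearly all features. The part of these cells in the results for Slco2b1, Slco2a1 and Abcc9 was not tested. Principal cell markers went the other way: 9 of 12 were higher in the 600 than in the 300 culture and 8 rose in the 900 challenge, beside Slco4a1 and Abcc4, while in the 600 challenge, where both genes rose, 3 of the 12 rose and 1 fell. Of 5 loop of Henle markers measured 3 rose in the 600 challenge, 4 in the 600 culture and 3 in the 900 challenge, with mean levels per array of 2.92 to 3.12 in the 300 culture, 3.37 to 3.61 in the 600 challenge, 4.57 to 4.75 in the 600 culture and 5.49 to 5.54 in the 900 challenge. Of 6 intercalated cell markers 1 rose in the 600 challenge and 2 fell in the 900 challenge. In the 600 against the 300 culture 2 were higher and 1 lower. The part of these cell types in the rises of Slco4a1, Abcc4 and Abcc5 was not tested either. Slco3a1, Slco5a1, Abcg2 and Abcb1b parted by the culture the cells started from, and were lower in the groups grown at 600. The principal cell, loop of Henle and endothelial means also parted in this way, but they were higher in the groups grown at 600. Intercalated cell markers disagreed. Slc26a4 had group means of 6.15, 6.12 and 5.95 in the groups grown at 300 and 3.61, 3.42 and 3.34 in those grown at 600. Car2 went the other way, with 5.79, 6.31 and 6.28 against 7.38, 7.10 and 7.03. In every group 4 of the 6 intercalated cell markers lay under the lower quartile. The part of these cell types in the results for these 4 genes was not tested.

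**Figure D4:**
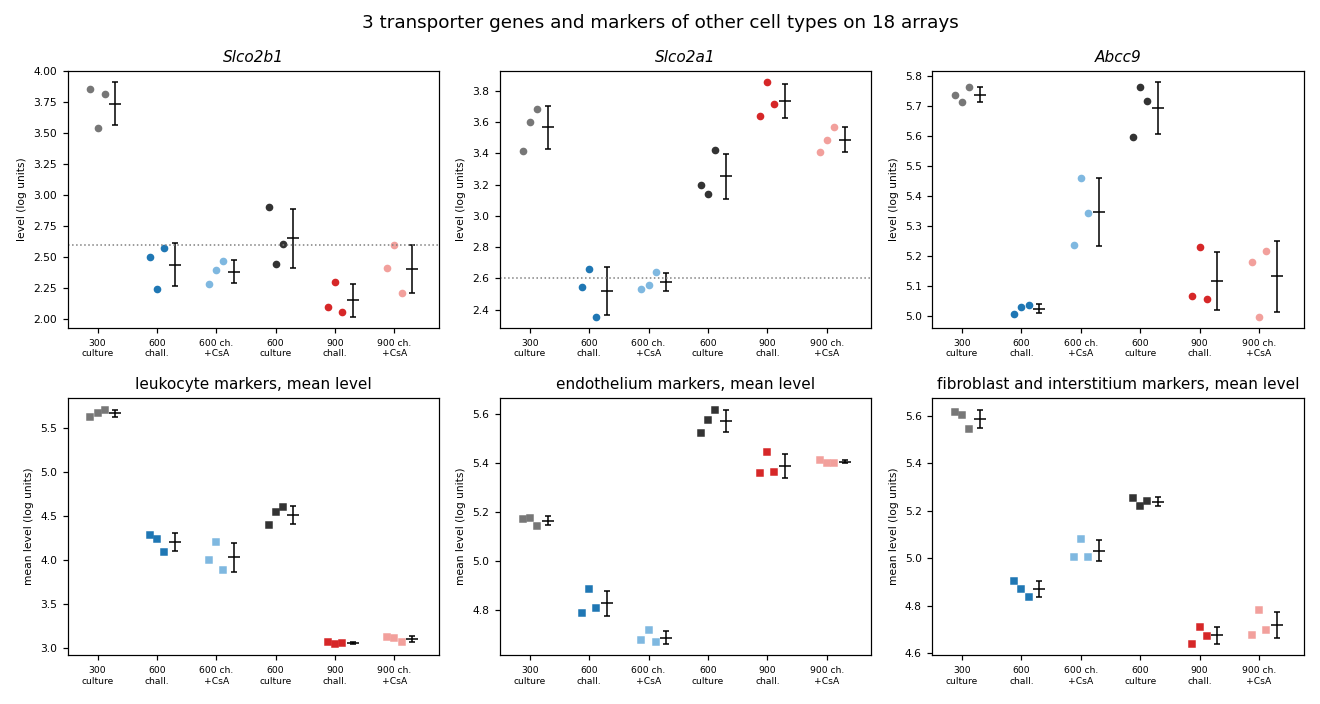
Levels of Slco2b1, Slco2a1 and Abcc9 (top, log units) and mean levels of 8 leukocyte, 8 endothelial and 9 fibroblast and interstitium markers (bottom, log units) on each of the 3 arrays per group (points), with the group mean and SD (bars); the axes differ between panels and the dotted line is the lower quartile of feature means, 2.600. The leukocyte mean goes from 5.62 to 5.70 in the 300 culture to 3.05 to 3.07 in the 900 challenge, and Slco2b1 is highest and lowest in the same 2 groups.

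A list of 52 other transport and detoxification genes, the enzymes, cofactors and regulators that work beside these carriers, had 43 members measured. In the 600 challenge 6 rose and 9 fell, against 6.36% and 8.07% of all features. In the 900 challenge 4 rose and 8 fell, against 6.43% and 11.0%. In the 600 against the 300 culture 12 were higher and 7 lower, against 8.33% and 8.84%. In the 600 challenge against the 600 culture 6 were higher and 12 lower, against 7.69% and 8.74%. With cyclosporin A, 5 rose and 6 fell at 600, against 6.21% and 7.85%. At 900 with the drug 7 rose and 8 fell, against 7.27% and 10.5%. The drug comparisons themselves called 0 at 600, against 0.229% higher and 0.180% lower, and 0 at 900, against 0.357% and 0.148%. The medians of the list were 0.02 in the 600 challenge and -0.10 in the 900 challenge, beside 0.02 and -0.01 over all features.

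Among the enzymes, Nqo1, a quinone reductase, rose by 0.67 in the 600 challenge (adjusted p = 2.96e-06) and by 0.58 in the 900 challenge (adjusted p = 9.76e-06), and Gclm, a subunit of the enzyme that starts glutathione synthesis, by 0.50 and 0.29. Gstm1, a glutathione transferase, went the other way in both moves (-0.62 and -0.85) although it was 0.77 higher in the 600 than in the 300 culture. Of the nucleoside carriers Slc28a2 fell most, by 1.54 in the 600 challenge (-1.54, adjusted p = 5.96e-07) and 1.81 in the 900 challenge (-1.81, adjusted p = 1.27e-07). Sult1a1, a sulfotransferase that makes substrates of Slco and Abcc proteins, was 1.90 higher in the 600 than in the 300 culture (adjusted p = 1.72e-09) and 2.00 lower in the 600 challenge than in the 600 culture (-2.00, adjusted p = 1.55e-09). The xenobiotic receptor gene Ahr fell by 1.13 in the 900 challenge (-1.13, adjusted p = 6.85e-07), where its known targets Cyp1a1 and Cyp1b1 gave -0.50 (adjusted p = 0.0516) and -0.37 (adjusted p = 0.407). In the 600 challenge Ahr gave -0.22 (adjusted p = 0.127), Cyp1a1 rose by 1.18 (adjusted p = 0.000164) and Cyp1b1 fell by 1.06 (-1.06, adjusted p = 0.0106).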

How the data were processed

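Total RNA of 18 samples was turned into whole-transcript cDNA and biotin-labelled, per the labels' protocols. The authors deposited 1 log-scale expression value per feature and array, whose log base, summarisation and normalization are not given in the sources used here; the values run from 0.000 to 9.504. No background correction, floor or filter was added. Symbols came from the platform's annotation, and all 56 genes matched the GRCr8 gene table by Entrez identifier.

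Groups were compared with limma 3.58.1 in R 4.3.3: 6 group means on all 18 arrays, with moderated variances on 14.03 degrees of freedom (12 residual, 2.03 prior); p-values were adjusted by Benjamini-Hochberg over 28328 features, with a threshold of 0.05. The script was tested on simulated data. The 8 pairwise comparisons and 2 tests of a difference of effects share control arrays. The rule for named genes gave values on every array for the 14 called members with the largest difference, and other called members by their differences. Members, lists and this rule were chosen with earlier results of these data known. Alternatives were median centring, quantile normalization, dim features left out, only the groups compared, a replicate block, trended robust variance, the mean over a gene's features, and each array left out. Markers of principal, intercalated, proximal tubule, loop of Henle, endothelial, fibroblast and leukocyte cells and a list of transport and detoxification genes were counted by direction, with no list test. Protein sequences were not used here. Figures were drawn with matplotlib 3.10.9 in Python 3.11.15.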

Additional observations from a re-analysis of the deposited data

Results flagged for a closer look

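A set of 6 transporter genes responded differently to the 2 osmotic moves, by a test of the difference itself (600 to 900 minus 300 to 600 mosmol/kg, limma, adjusted p under 0.05 over all features). Of the 56 genes 3.6% were higher and 7.1% lower, against 3.52% and 4.06% of all features. The value was 1.529 for Slco2a1 (SE 0.136, adjusted p = 1.19e-05), 0.798 for Slco2b1 (SE 0.189, adjusted p = 0.019), and -1.356 for Slco4a1 (SE 0.108, adjusted p = 6.11e-06). It was -0.892 for Abcg2 (SE 0.118, adjusted p = 0.000321), -0.730 for Slco5a1 (SE 0.107, adjusted p = 0.000698) and -0.690 for Abcb4 (SE 0.085, adjusted p = 0.000179). Slco2a1 and Abcb4 changed in opposite directions at the 2 moves, each past the threshold. The Slco2b1 value did not pass without array 1 of the 300 culture or array 2 of the 600 culture (adjusted p = 0.0529 and 0.0524).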

How the results depend on the processing

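Of 62 calls over the 8 pairwise comparisons, 47 were kept under every alternative run, 15 in 10 genes were lost under at least 1, and 0 changed sign. The genes called in the 600 challenge against the 300 culture went from 11 to 7 when only those 2 groups were fitted, and ranged from 7 to 11 when 1 array was left out. The 7 came without array 1 or without array 3 of the 300 culture, and the calls lost with only the 2 groups fitted were Abcb1a (adjusted p = 0.0612), Abcc1 (0.059), Slc47a1 (0.186) and Slco3a1 (0.0711). With trended robust variance the cyclosporin A effect called 1 gene at 600 (Abcc9) and 1 at 900 (Abcb1b), in place of 0 and 0. With 3 arrays a group, the number of arrays limits the precision.

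With a replicate block the counts were 11, 12, 11, 8, 0, 0, 12 and 11 in the order 600 challenge, 600 challenge with drug, 900 challenge, 900 challenge with drug, drug at 600, drug at 900, 600 against 300 culture, and 600 challenge against 600 culture. The block lost 2 calls (Slc22a18 at the 600 challenge with drug, adjusted p = 0.0537, and Abcb1b at the 900 challenge, 0.0544) and gained 5 in these comparisons, and 1 more in the difference between the osmotic moves. Over 24 same-numbered pairs the correlation of deviations from the group means ran from -0.129 to 0.073. Whether same-numbered samples share an animal, a preparation or a batch cannot be decided from this, as each group mean rests on few arrays. The numbers are those of the sample titles; for the third arrays of both 900 groups another label gives a different number. Abcb1b at 900 was also lost with median centring (0.104), and Abcc3 in the 600 challenge with drug with quantile normalization (-0.279, adjusted p = 0.0516). The cause of these changes was not tested. Differences of genes under the lower quartile of feature means, 25 of the 56, are limited by signal over background, which the sources used here do not give.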

Other observations

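Other carriers and enzymes beside the transporter genes had changes that, apart from that of Ggt1, the report has not described. The peptide carrier Slc15a1 was lower at each higher osmolality: -0.66 in the 600 challenge (adjusted p = 1.49e-06), -0.32 in the 900 challenge (adjusted p = 0.000873) and -0.93 in the 600 against the 300 culture (adjusted p = 1.83e-08; limma throughout). The nucleoside carrier Slc28a3 was -1.02 in the 600 culture (adjusted p = 1.26e-07) and -0.31 in the 600 challenge (adjusted p = 0.0104). Ephx1, an epoxide hydrolase, was 1.03 higher in the 600 than in the 300 culture (adjusted p = 1.66e-08) and -0.21 in the 600 challenge (adjusted p = 0.0315).

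At 900 mosmol/kg Ggt1, which splits extracellular glutathione and is also among the proximal tubule markers above, rose by 1.07 (adjusted p = 1.25e-05). The chloride channel gene Cftr fell by 0.84 (-0.84, adjusted p = 7.95e-06) and the bile acid carrier gene Slc10a2 by 0.76 (-0.76, adjusted p = 1.54e-05). Of the sterol exporters, Abcg1 rose by 0.32 in the 600 challenge (adjusted p = 0.000594) and 0.34 in the 900 challenge (adjusted p = 0.000279), and Abca1 fell by 0.31 in the 600 challenge (-0.31, adjusted p = 0.0286) and gave -0.03 in the 900 challenge (adjusted p = 0.862).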
